A study of Drosophila melanogaster with 4 samples.

Results

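The vacuolar proton ATPase (V-ATPase) genes of Drosophila melanogaster were followed in whole larvae that overexpressed the receptor guanylate cyclase Gyc76C. Members were all probe sets of the array whose single gene symbol in the platform annotation starts with Vha. There were 32 such probe sets out of 18952 on the array, and they stand for 31 genes out of 11982 with a symbol of their own. The RefSeq gene table lists 33 Vha symbols, and the other 2, Vha68-1 and Vha68-2, had no probe set of their own and were not analysed here.

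RNA came from animals in the third larval instar, which had grown at 25 °C. In the experimental larvae the C564-Gal4 driver switched on UAS-Gyc76C, and in the control larvae the same driver switched on UAS-GFP, so both genotypes carry the driver. The labels place the Gyc76C overexpression in the fat body, whereas the RNA is that of the whole body, and they do not say how many larvae went into a sample. Each genotype had 2 arrays, called biological replicas. In whole larvae, fewer cells of a type and less RNA per cell cannot be told apart.

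The V-ATPase is a rotary pump that uses ATP to move protons across membranes. Its V1 sector (subunits A to H) splits ATP on the cytosolic side, and its membrane sector Vo (subunits a, c, c'', d and e) carries the protons. Inside cells the pump acidifies endosomes and lysosomes. In the plasma membrane of Malpighian tubules, the fly's renal organ, and of gut epithelia it energises ion and fluid transport. Flies have several paralogs for many subunits, of which usually 1 is used in these epithelia, while others, such as Vha100-3, Vha36-2, Vha14-2, Vha68-3, VhaAC39-2 and VhaPPA1-2, are known mainly from testis. The plasma-membrane set used here was taken from general knowledge of fly V-ATPase genes and holds 13 genes, 12 of them measured. It is set against 17 other paralogs and 2 accessory genes.

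Gyc76C shares all 3 of its probe sets with CG42637. The brightest had signals of 16050 and 20993 in Gyc76C larvae, against 1047 and 928.0 in GFP larvae. The other 2 probe sets of Gyc76C went the other way. The tested one had 9.42 and 30.6 in Gyc76C larvae, against 91.9 and 64.9 in GFP larvae. Its log2 fold change was -2.19 with an SE of 0.81, not called at a limma adjusted p of 0.0951. It passed the filter level of 46.3, given below, through its GFP signals alone, and the fold is a bound, at least 1.67-fold lower. The other, which was not tested, had 2.43 and 4.69 in Gyc76C larvae, against 17.01 and 14.6 in GFP larvae. The sources used here do not give which of the 3 probe sets lie within the transgene. Signals are MAS5 values on a linear scale, scaled by the authors to a common trimmed mean. All 8 measured fat body markers and all 15 measured Malpighian tubule markers had signals above 46.3, the level below which a probe set's mean was not tested, on every array, as did 15 of 22 testis markers and 5 of 11 neuron markers. Over 11261 tested probe sets the middle log2 fold change of Gyc76C over GFP larvae was -0.16, so a gene at 0 stood slightly above the middle of the array. Salivary gland signal differed strongly between the genotypes: the 14 genes listed for it, the glue genes among them, summed to 24663 and 21721 in Gyc76C larvae, against 211068 and 195268 in GFP larvae. What part that difference plays in the scaled values of the V-ATPase genes was not tested.

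Of the 12 measured genes of the plasma-membrane set 3 were higher in Gyc76C larvae and 9 did not pass the test. The 3 were VhaAC39-1 (subunit d), Vha100-2 (subunit a) and Vha36-1 (subunit D), with rises of 1.68-fold, 1.50-fold and 1.40-fold. By limma 0 of the 12 were called lower at an adjusted p under 0.05, and 0 were lower at an unadjusted p under 0.05, where 5 were higher. The share of all probe sets under that unadjusted level was not counted. Counts at the unadjusted level, here and for the lists below, thus have no background beside them. Over all probe sets tested, 24.6% were called in either direction, 11.3% as higher and 13.3% as lower. The set's 3 of 12 higher calls (25%) stand beside a background of 11.3%. Counted in either direction, its 25% is near the background of 24.6%. That background includes dim probe sets, whereas the lowest signal of the set on any array was 4342. With the filter level raised to 169.3, 1247 of 7508 probe sets were higher, and 4 of the 12 genes. The log2 fold changes of the set ran from -0.06 to 0.75 with a median of 0.26. The median for all probe sets was -0.16, and all 12 lay above it. After quantile normalization Vha14-1 (-0.11) and VhaM9.7-b (-0.17) lay under that setting's median of -0.02. Without GFP replicate 2 VhaM9.7-b (-0.17) lay under the median of -0.14. The 3 higher calls depend on the arrays. Without Gyc76C replicate 1 none of the 3 was called (0 of 12), without Gyc76C replicate 2 VhaAC39-1 alone was, and 0 were called when limma's prior variance had no trend with the mean signal. With each array centred on its median, 5 were called, Vha13 and Vha44 being added.

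**Figure D1:**
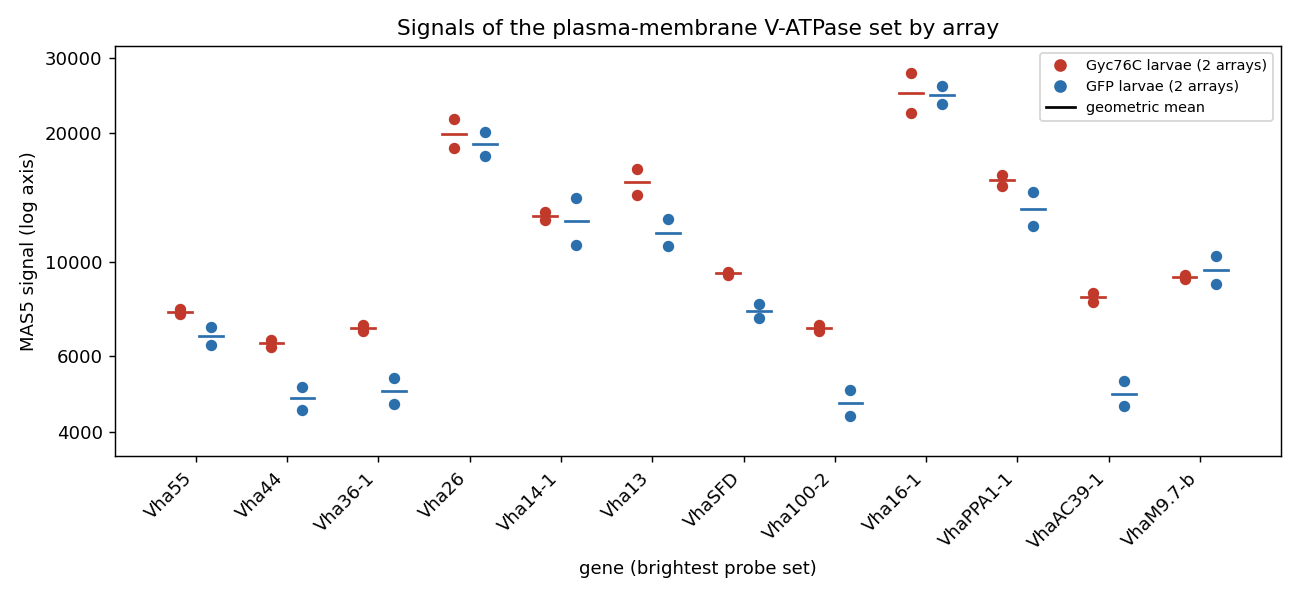
MAS5 signal (log axis) of each measured gene of the plasma-membrane set, with 1 point per array, Gyc76C larvae left and GFP larvae right, and bars at the geometric mean. V1 genes come first and Vo genes after them. For 8 of the 12 genes the Gyc76C points lie above those of GFP larvae.

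In the membrane sector, VhaAC39-1 encodes subunit d, which couples the central stalk to the proton ring. Its signals were 8468 and 8034 in Gyc76C larvae, against 5252 and 4582 in GFP larvae. The groups did not overlap, and the gene was 1.68-fold higher (log2 fold change 0.75, SE 0.13, limma adjusted p = 0.0106). Centring the arrays gave 0.91 (adjusted p = 0.00682), and the value without any 1 array lay between 0.65 and 0.85. The call ended without Gyc76C replicate 1 (adjusted p = 0.0687).

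Vha100-2 encodes the a subunit used in renal and gut epithelia, the part of the pump that anchors it in the membrane and forms the proton half-channels. It had 7106 and 6893 in Gyc76C larvae, against 5004 and 4342 in GFP larvae. Both Gyc76C arrays were higher than both GFP arrays, a 1.50-fold rise (log2 fold change 0.59 with an SE of 0.13, limma adjusted p = 0.0233). Leaving out single arrays gave 0.48 to 0.69, and the adjusted p reached 0.136, with the call lost without either Gyc76C array.

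The remaining Vo genes of the set moved less. Vha16-1, the c subunit that forms the rotating ring, is read by 2 probe sets. The brighter gave 22322 and 27683 in Gyc76C larvae and 25831 and 23441 in GFP larvae, overlapping groups with a log2 fold change of 0.01 (SE 0.16, limma adjusted p = 0.957). The other gave 14330 and 14337 in Gyc76C larvae and 12693 and 10808 in GFP larvae, groups that did not overlap, with 0.29 (SE 0.14, limma adjusted p = 0.179). Neither probe set passed, and the difference between them was not tested. The brighter had -0.14 without Gyc76C replicate 2. VhaPPA1-1, the c'' subunit of the same ring, had 15064 and 15962 in Gyc76C larvae, against 14577 and 12138 in GFP larvae (log2 fold change 0.22, adjusted p = 0.313 by limma). VhaM9.7-b, the small e subunit, had 9304 and 9094 in Gyc76C larvae, within the 10337 and 8850 of GFP larvae, and was the single gene of the set with a value under 0 (-0.06, limma adjusted p = 0.795).

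In the ATP-splitting sector, 7 genes of the set were measured and all 7 had log2 fold changes above 0, of which 1 passed. Vha36-1, subunit D of the rotating central stalk, had 7122 and 6866 in Gyc76C larvae, against 5342 and 4656 in GFP larvae. The groups were apart and the gene was 1.40-fold higher (log2 fold change 0.49, SE 0.13, limma adjusted p = 0.0416). The smallest value without 1 array was 0.39, and the call held without GFP replicate 1 but ended without any of the other 3 arrays (adjusted p up to 0.212).

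Vha44, subunit C, which takes part in the reversible assembly of the pump, had 6308 and 6572 in Gyc76C larvae and 5095 and 4497 in GFP larvae. It just missed the threshold (a log2 fold change of 0.43 with an SE of 0.13, limma adjusted p = 0.0577) and passed with centred arrays, with the stricter filter on dim probe sets and without GFP replicate 1. Vha13, subunit G of the outer stalk, had 14362 and 16474 in Gyc76C larvae and 12560 and 10904 in GFP larvae, again without overlap (0.39, SE 0.15, limma adjusted p = 0.101). VhaSFD, the regulatory subunit H, had 9308 and 9473 in Gyc76C larvae and 7964 and 7394 in GFP larvae (0.29, limma adjusted p = 0.140). For Vha44, Vha13 and VhaSFD, then, the 2 Gyc76C arrays were the higher ones although none of the genes passed.

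The other 3 genes of the sector stood nearer to 0. Vha55, subunit B of the ATP-binding head, had 7734 and 7533 in Gyc76C larvae and 7043 and 6398 in GFP larvae (log2 fold change 0.19, SE 0.13, limma adjusted p = 0.325). Vha26, subunit E of the outer stalk, had 18467 and 21554 in Gyc76C larvae and 20132 and 17661 in GFP larvae (0.08, limma adjusted p = 0.730). Vha14-1, subunit F, had 12490 and 13073 in Gyc76C larvae and 14113 and 10959 in GFP larvae (0.04, limma adjusted p = 0.882). Both Vha26 and Vha14-1 had overlapping groups, whereas those of Vha55 were apart by a small margin. The sign of Vha26 and Vha14-1 was not stable. Vha26 had -0.03 without Gyc76C replicate 2, and Vha14-1 had -0.14 without GFP replicate 2 and -0.11 after quantile normalization.

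Over the set, the lower Gyc76C array exceeded the higher GFP array in 8 of 12 genes, and the reverse held in 0. Over all tested probe sets 26.9% were fully above in this way and 41.4% fully below. GFP replicate 2 was lower than GFP replicate 1 in all 12 genes, by a median of 0.20 on the log2 scale, beside the median difference of 0.26 between the genotypes. The 2 Gyc76C arrays differed in either direction, by a median size of 0.06. The median of the set was 0.35 without GFP replicate 1 and 0.18 without GFP replicate 2. It was 0.41 with centred arrays and 0.12 after quantile normalization, above 0 in each case. The medians over all tested probe sets were then 0.002 and -0.02.

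**Figure D2:**
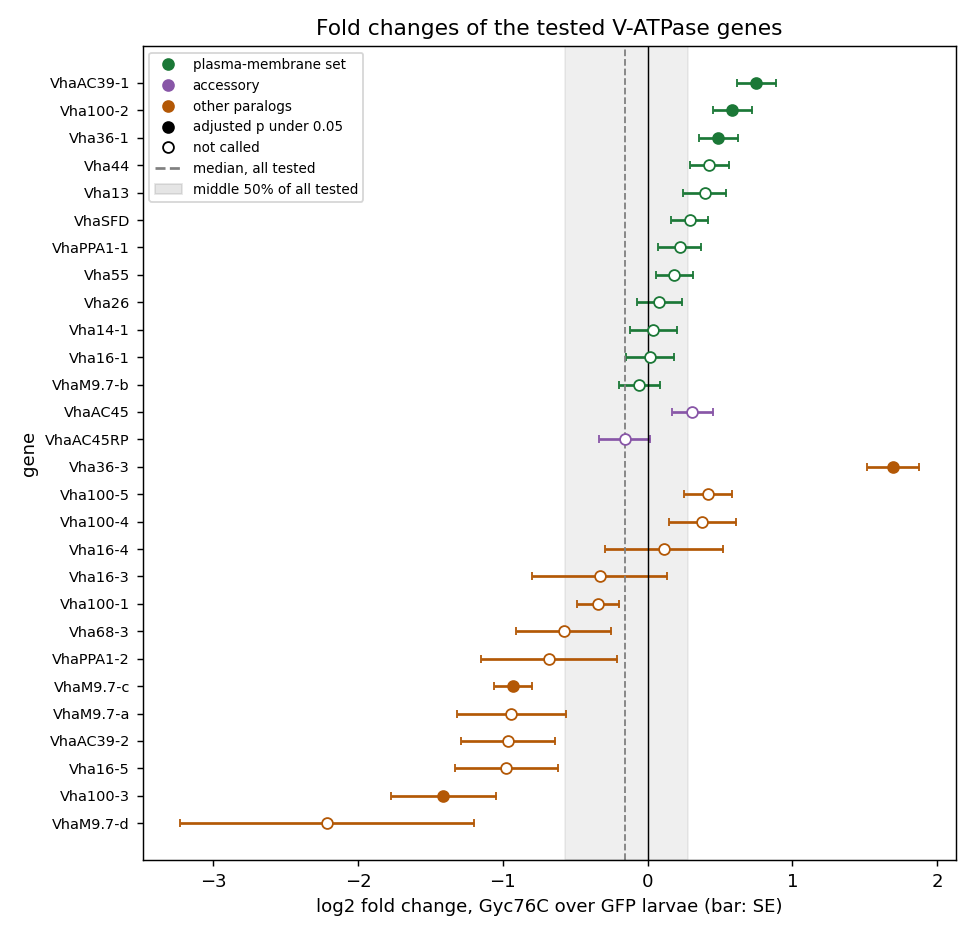
Log2 fold change of Gyc76C over GFP larvae with its standard error for the 28 tested V-ATPase genes, ordered by size within the plasma-membrane set, the accessory genes and the other paralogs; filled points passed an adjusted p of 0.05. The 12 genes of the plasma-membrane set lie between -0.06 and 0.75, and the other paralogs spread from -2.21 to 1.69.

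The other paralogs spread much more widely, and most were dim. Of 17 genes 14 had a mean signal above the filter, of which 1 rose (Vha36-3), 2 fell (VhaM9.7-c and Vha100-3) and 11 did not pass, so 7.14% were higher and 14.3% lower beside the backgrounds of 11.3% and 13.3%. Their log2 fold changes ran from -2.21 to 1.69 with a median of -0.63. That median describes dim probe sets in the main, since it was 0.38 over the 5 genes whose mean signal passed a stricter level of 169.3. VhaM9.7-d and VhaPPA1-2 passed the filter through their GFP signals alone, so the number of genes below the controls is no support for a fall.

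Vha36-3, a paralog of the subunit D gene Vha36-1, had the lowest adjusted p of the family. Its signals were 581.8 and 622.3 in Gyc76C larvae, against 170.0 and 203.9 in GFP larvae. The groups lay far apart, with a 3.23-fold rise (log2 fold change 1.69, SE 0.18, limma adjusted p = 0.00181). The gene was called in each of the 13 alternatives run, with log2 fold changes of 1.56 to 1.85 and adjusted p of at most 0.0253. Vha36-1 rose 1.40-fold beside it, and the third paralog, Vha36-2, was not tested, with signals of 2.94 and 2.73 in Gyc76C larvae and 4.38 and 25.2 in GFP larvae. Whether the changes of Vha36-3 and Vha36-1 differ was not tested.

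Among the e subunit genes, VhaM9.7-c fell while the member of the plasma-membrane set did not pass. VhaM9.7-c had 674.8 and 693.3 in Gyc76C larvae, against 1269 and 1332 in GFP larvae. It was 1.90-fold lower, with replicates that agree closely (log2 fold change -0.93, SE 0.13, limma adjusted p = 0.00489). Its value stayed between -0.96 and -0.77 over 13 alternatives, and the call ended without Gyc76C replicate 1 alone (adjusted p = 0.0501). VhaM9.7-a had 78.6 and 57.2 in Gyc76C larvae and 162 and 102 in GFP larvae (log2 fold change -0.94, SE 0.38, limma adjusted p = 0.112). VhaM9.7-d was near the lowest signals tested, with 39.5 and 6.13 in Gyc76C larvae and 76.8 and 67.9 in GFP larvae. Its log2 fold change of -2.21 had an SE of 1.02 (limma adjusted p = 0.156), and the bound that the filter level allows is at least 1.56-fold lower. That value was -3.56, and called, without Gyc76C replicate 1 and -0.87 without Gyc76C replicate 2.

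The a subunit has 5 genes, and all 5 were tested. Next to Vha100-2 on the chromosome, with no protein-coding gene between them in the RefSeq gene table (Release 6), lies Vha100-4, a paralog known from the acid-secreting midgut. Vha100-4 had 754.9 and 1049 in Gyc76C larvae and 813.6 and 575.4 in GFP larvae, overlapping groups that did not pass (log2 fold change 0.38, SE 0.23, limma adjusted p = 0.269). Vha100-5 had 2968 and 2546 in Gyc76C larvae and 2327 and 1817 in GFP larvae (0.42, SE 0.17, limma adjusted p = 0.112), and was called without GFP replicate 1. Vha100-1, the neuronal a subunit that also acts at synapses, had 1268 and 1228 in Gyc76C larvae and 1446 and 1732 in GFP larvae (-0.34, SE 0.14, limma adjusted p = 0.128). It was called lower without GFP replicate 1, at -0.47.

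Vha100-3 had 45.6 and 48.8 in Gyc76C larvae, against 110 and 143 in GFP larvae. With 1 Gyc76C array under the filter level, it was at least 2.64-fold lower (log2 fold change -1.41, SE 0.36, limma adjusted p = 0.0341). The call held in 7 of 12 alternatives and was lost with either GFP array or Gyc76C replicate 1 left out, with quantile-normalized signals and with no filter (adjusted p up to 0.194). Of the a subunits, then, 1 rose, 1 fell and 3 did not pass.

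Of the paralogs known mainly from testis, Vha100-3 was the 1 that passed. VhaAC39-2 had 62.9 and 86.6 in Gyc76C larvae and 162 and 127 in GFP larvae (log2 fold change -0.96, SE 0.32, limma adjusted p = 0.0737). Vha68-3 had 92.5 and 137.4 in Gyc76C larvae and 207 and 137.2 in GFP larvae (-0.58, limma adjusted p = 0.235). VhaPPA1-2, which lies 1 protein-coding gene from VhaPPA1-1, had 53.2 and 37.3 in Gyc76C larvae and 67.1 and 75.8 in GFP larvae (-0.68, limma adjusted p = 0.321). Vha14-2 was not tested, with 3.76 and 31.9 in Gyc76C larvae and 36.7 and 21.2 in GFP larvae. Of 19 tested testis and sperm markers 4 fell, 15 did not pass and 0 rose by limma (10 lower and 0 higher at an unadjusted p under 0.05), so 21.1% were lower beside the background of 13.3%. The marker dj, which did not pass, had a Gyc76C mean of 42.7, under the filter level, and was tested because of its GFP mean of 69.1. The median log2 fold change of those markers was -0.83, and their summed signal over 22 measured genes was 3046 and 5645 in Gyc76C larvae, against 9036 and 7181 in GFP larvae. Among them betaTub85D, a testis-specific tubulin gene, fell 2.59-fold (limma adjusted p = 0.0120). Leaving out Gyc76C replicate 1 left 1 gene that fell, and leaving out Gyc76C replicate 2 gave 11. The numbers were 2 without GFP replicate 1 and 6 without GFP replicate 2. The part of these markers in the values of the paralogs was not tested.

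The c subunit paralogs beside Vha16-1 were all dim, and 0 of the 3 tested passed by limma (Vha16-5 alone had an unadjusted p under 0.05). Vha16-5 had 75.3 and 142.3 in Gyc76C larvae and 234 and 177 in GFP larvae, groups that did not overlap (log2 fold change -0.97 with an SE of 0.36, limma adjusted p = 0.0931), and was called without Gyc76C replicate 2 (-1.43). Vha16-3 had 48.3 and 77.8 in Gyc76C larvae and 98.6 and 60.2 in GFP larvae (-0.33, limma adjusted p = 0.632). Vha16-4 had 72.6 and 60.4 in Gyc76C larvae and 64.4 and 58.2 in GFP larvae (0.11, limma adjusted p = 0.863). Vha16-3 and Vha16-4 had overlapping groups and values that changed sign when single arrays were left out. Vha16-2, the direct neighbour of Vha16-3, was not tested, with 18.2 and 29.1 in Gyc76C larvae and 51.9 and 25.5 in GFP larvae.

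**Figure D3:**
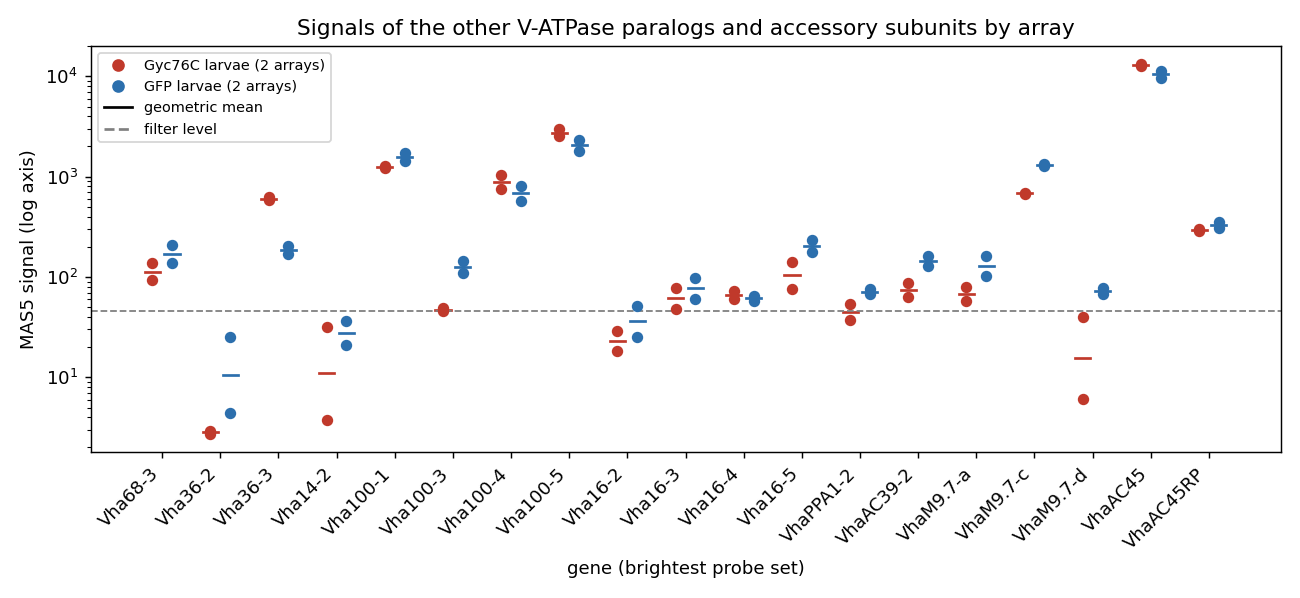
MAS5 signal (log axis) of the 17 other paralogs and 2 accessory genes, with 1 point per array, Gyc76C larvae left and GFP larvae right, and bars at the geometric mean; the dashed line is the filter level of 46.3. Vha36-3 is higher and VhaM9.7-c lower in Gyc76C larvae with tight replicates, and many of the others lie near the line.

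VhaAC45, the accessory subunit that assists assembly and trafficking of the pump, was not called. It had 12791 and 13158 in Gyc76C larvae and 11308 and 9679 in GFP larvae, without overlap (log2 fold change 0.31, SE 0.14, limma adjusted p = 0.153). Its relative VhaAC45RP had 288.8 and 301.4 in Gyc76C larvae and 351 and 309 in GFP larvae (-0.16, limma adjusted p = 0.531). By limma 0 of these 2 genes passed, also at an unadjusted p under 0.05. ATP6AP2, the other accessory subunit, whose symbol does not start with Vha, had 10833 and 10760 in Gyc76C larvae and 9182 and 7857 in GFP larvae (0.35, SE 0.14, limma adjusted p = 0.114). VhaAC45 and ATP6AP2 were thus both higher on the 2 Gyc76C arrays without passing, and VhaAC45RP was lower on both. Of all tested probe sets, 26.9% were fully above and 41.4% fully below in this way. Mitf, the transcription factor that activates V-ATPase and lysosomal genes in flies, had 85.6 and 101.4 in Gyc76C larvae and 111 and 99.4 in GFP larvae (-0.17, SE 0.30, limma adjusted p = 0.704). Rbcn-3B, of the complex that assembles the pump, had -0.14 (limma adjusted p = 0.645).

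**Figure D4:**
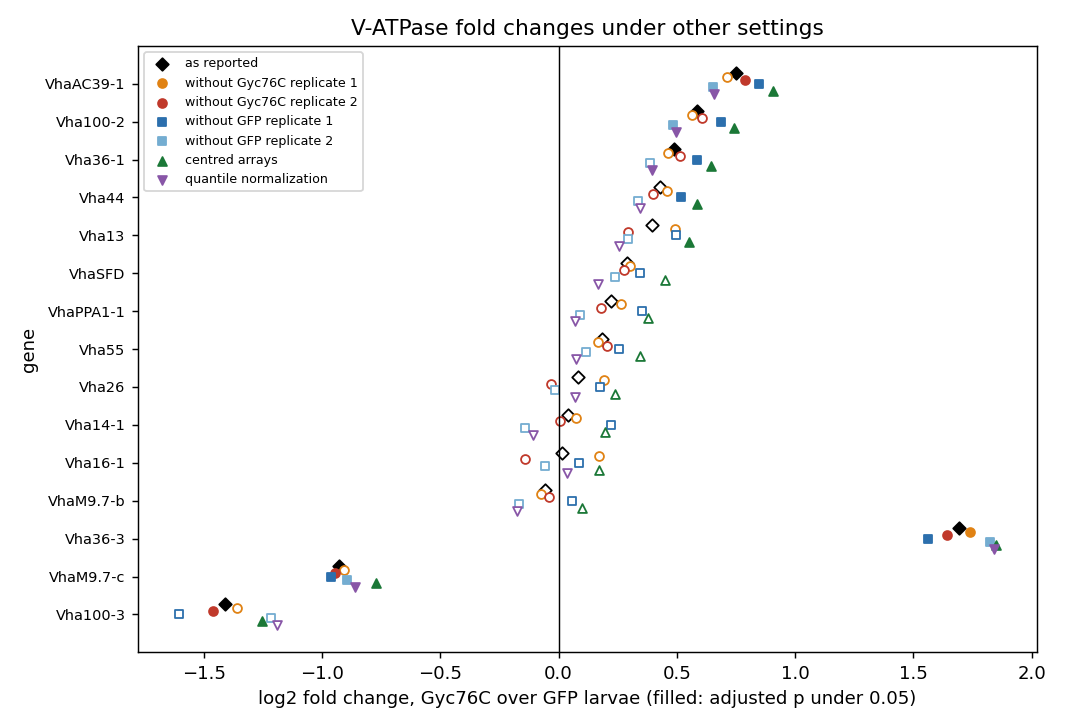
Log2 fold change of Gyc76C over GFP larvae for the 12 genes of the plasma-membrane set and the 3 other paralogs that passed, as reported, without each array in turn, with centred arrays and after quantile normalization; filled symbols passed an adjusted p of 0.05. Vha36-3 stays between 1.56 and 1.85, and VhaAC39-1 between 0.65 and 0.91.

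Genes of the lysosome, the compartment that the V-ATPase acidifies, were mostly lower in Gyc76C larvae. Of 16 measured lysosomal hydrolase and membrane genes 11 fell and 0 rose by limma (0 higher also at an unadjusted p under 0.05). That is 68.8% lower beside the background of 13.3%. The list's middle log2 value was -0.64, beside -0.16 for all probe sets. When arrays were centred these values were -0.49 and 0.002, and 8 genes of the list fell. After quantile normalization 9 fell. cathD, a lysosomal aspartyl protease, had 11933 and 12630 in Gyc76C larvae, against 22141 and 23108 in GFP larvae, 1.84-fold lower (SE of the log2 fold change 0.13, limma adjusted p = 0.00593). CtsF, a cysteine cathepsin, had 4220 and 4450 in Gyc76C larvae, against 7612 and 8978 in GFP larvae, 1.91-fold lower (limma adjusted p = 0.00577). LManII, a lysosomal mannosidase, fell 2.32-fold (limma adjusted p = 0.00945). Over the list, both Gyc76C arrays were below both GFP arrays in 12 of 16 genes and above in 2. Of all tested probe sets, 41.4% were fully below and 26.9% fully above. Of the 16, 3 fell without Gyc76C replicate 1, 7 without Gyc76C replicate 2 and 2 when the prior variance had no trend. The difference between this list and the plasma-membrane set was not tested.

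The Ragulator complex and lysosomal TORC1 signalling, which docks with the V-ATPase on lysosomes, had 7 tested genes. Of these 3 fell and 0 rose by limma (3 lower and 0 higher at an unadjusted p under 0.05), with a median of -0.35. That is 42.9% lower beside the background of 13.3%. Lamtor3 had 1020 and 929.2 in Gyc76C larvae, against 1669 and 1686 in GFP larvae (log2 fold change -0.79, limma adjusted p = 0.00821). Lamtor4 and Lamtor5 had -0.51 and -0.44 (limma adjusted p = 0.0316 and 0.0499), so Lamtor5 was just under the threshold. With centred arrays Lamtor3 alone was called, and 0 were called without either Gyc76C array or without the variance trend. Of 7 measured chloride channel and sodium/proton exchanger genes, 2 fell (28.6%, beside 13.3%) and 0 rose by limma, also at an unadjusted p under 0.05. The 2 were the chloride transporter gene ClC-b (-0.60, limma adjusted p = 0.0276) and the exchanger gene Nhe3 (-0.95, limma adjusted p = 0.0478). Neither passed with centred arrays (adjusted p = 0.0696 and 0.0763), and 0 were called lower without either Gyc76C array, after quantile normalization or without the variance trend.

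Of 15 Malpighian tubule markers 2 rose, 2 fell and 11 did not pass, which is 13.3% in each direction and near the backgrounds of 11.3% higher and 13.3% lower. Their median was 0.25 on the log2 scale, with 8 values above 0 and 7 under it. The summed signal of the markers was 8091 and 7386 in Gyc76C larvae, against 7098 and 6589 in GFP larvae. That higher sum rests on 2 genes, salt (1284 and 1085, against 225 and 170) and Oatp58Dc (1182 and 1163, against 399 and 460). The 2 that rose were salt, 6.02-fold higher at 1184 ± 141 in Gyc76C larvae and 198 ± 38.9 in GFP larvae (SD, n = 2 each, limma adjusted p = 0.000535), and the transporter gene Oatp58Dc, 2.74-fold higher (limma adjusted p = 0.00155). The zinc transporter gene ZnT35C and the potassium channel gene Irk1 had log2 fold changes of -0.78 and -0.62 (limma adjusted p = 0.0150 and 0.0175), and 0 tubule markers were called lower without either Gyc76C array or without the variance trend. A list of 12 tubule ion transport genes, which shares members with the markers, had 0 higher and 1 lower by limma. The 1 was Irk1 again (8.33%, beside the background of 13.3%). At an unadjusted p under 0.05, 1 of the 12 was higher and 3 were lower. The list's median was -0.25 (-0.10 with centred arrays), with 4 values above 0 and 8 under it. Of 20 midgut enzyme genes 5 rose and 5 fell (25% each way, beside 11.3% and 13.3%). Their summed signal was 230223 and 274859 in Gyc76C larvae, against 289623 and 242054 in GFP larvae. LysP, a lysozyme gene among the 5 that fell, passed the filter through its GFP signals alone, and the number that fell was 3 without Gyc76C replicate 1 or without the variance trend. Among 3 measured genes of the acid midgut, 1 was higher (33.3%, beside 11.3%) and the other 2 did not pass. The 1 was Ptx1, a transcription factor gene of the copper cell region, 1.72-fold higher (limma adjusted p = 0.0421). That call ended without GFP replicate 1, without either Gyc76C array, without the variance trend, with no filter and with signals under the filter level raised to it. Of 12 muscle genes tested 5 rose and 0 fell by limma (7 higher and 0 lower at an unadjusted p under 0.05), so 41.7% were higher beside the background of 11.3%, and 3 rose without the variance trend. The part of these tissues in the V-ATPase values was not tested.

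**Figure D5:**
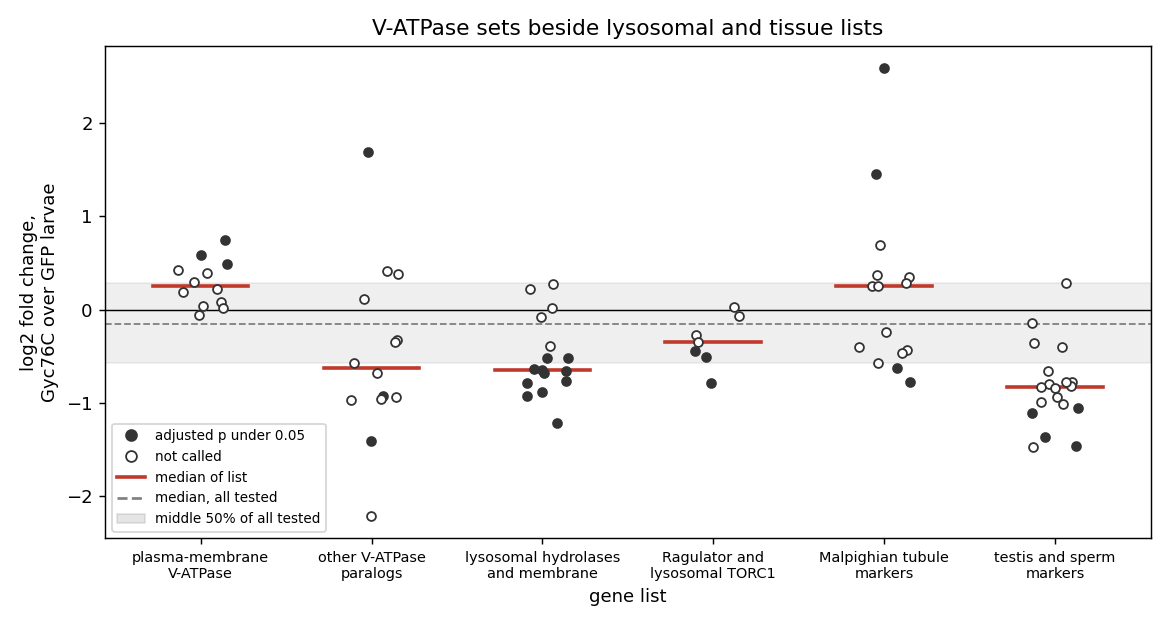
Log2 fold change of Gyc76C over GFP larvae for tested genes of 6 lists, with 1 point per gene (filled: adjusted p under 0.05), the list median as a red bar, and the median and middle 50% of all tested probe sets in grey. The plasma-membrane V-ATPase genes have a median of 0.26, and the lysosomal genes -0.64.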

How the data were processed

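The authors deposited linear intensity values per probe set, computed by MAS5 (per the submitters' processing notes, no version named). For the annotation's genome build, the labels and files used here name none. The 2% trimmed mean was 500.02 on every array. MAS5 gives a signal also where nothing is detected, so low signals scatter widely on the log2 scale. Of 18952 probe sets, 183 controls (AFFX) were left out, and 13647 of the others had 1 gene symbol. No probe set with several symbols stands for a gene here, except for Gyc76C. Those with several symbols (402) or none (4720) were not left out of the test. The shares and medians over all probe sets therefore include those of them that passed the filter. Of 9259 tested genes with 1 symbol, each by its brightest probe set, 1078 were higher and 1297 lower, with a median log2 fold change of -0.17.

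Signals were log2-transformed with no pseudocount. Probe sets with a mean signal over the 4 arrays at or above the 40th percentile (46.3) were tested, which left 11261 probe sets and 28 of 31 Vha genes. Genotypes were compared with limma (version 3.58.1, R 4.3.3), lmFit and eBayes with a mean trend, two-sided, with Benjamini-Hochberg adjustment over all probe sets tested; the script was tested on simulated data. Residual degrees of freedom were 2, and prior ones 4.64. Folds are ratios of geometric means. Where an array was under 46.3, its signal was raised to that level and the fold is a bound.

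Each gene stands by its brightest probe set. Named genes are all Vha genes and Gyc76C. Those named from other lists, apart from dj, are among up to 3 called members with the largest changes, or up to 2 where none is called. Not every such member is named, and those of the fat body, salivary gland, neuron, muscle and blood cell lists are not. The members, the lists and the tests were chosen with earlier results of these data known. Nothing in the labels says that the replicas came from separate cultures or crosses, so p-values measure the spread between these samples only. Alternatives were centring, quantile normalization, other filters, a floor, an offset of 16, other prior variances, the replicate number as a block and leaving out each array.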

Additional observations from a re-analysis of the deposited data

How the results depend on the processing

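The count of called V-ATPase probe sets was 6. It was 3 without a mean trend in the variance, 2 at an adjusted p of 0.01, and between 2 and 8 when single arrays were left out. Of the plasma-membrane set 3 genes were higher, against 5 with centred arrays, 0 without the trend, 0 at an adjusted p of 0.01, and 0 to 4 without single arrays. Of the other paralogs 1 was higher, or 1 to 2 without single arrays, and 2 were lower, against 1 after quantile normalization, with no filter, with the filter at the 60th percentile or at an adjusted p of 0.01, and 1 to 3 without single arrays. The median log2 fold change of all Vha genes was 0.06, against 0.22 with centred arrays and 0.29 with the stricter filter, and it ran from -0.034 without GFP replicate 2 (-0.012 without Gyc76C replicate 2) to 0.18 without GFP replicate 1. That of the plasma-membrane set was 0.26, against 0.41 with centred arrays, 0.12 after quantile normalization and 0.18 to 0.35 without single arrays. That of the other paralogs was -0.63, turned to 0.38 with the stricter filter, which leaves 5 genes, and was -0.78 to -0.44 without single arrays. Centring also moved the median over all tested probe sets, from -0.16 to 0.002. Causes were not tested where the construction does not show them.

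Over the whole array 2771 probe sets were called (1271 higher and 1500 lower), against 1241 without the trend, 1204 without Gyc76C replicate 1 and, with centred arrays, 1663 higher and 991 lower. The replicate numbers are shared between genotypes, but same-numbered arrays deviated together hardly at all (correlation 0.04 over tested probe sets). With the replicate number as a block 6 V-ATPase genes were called, all 6 of them called without it, and 3101 probe sets on the array. The number of arrays and the low signals of the dim paralogs limit the precision.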
